A study of Mus musculus with 2 samples.

Results

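NF-kB is a family of transcription factors that rest in the cytoplasm bound by inhibitors of the IkB family. Signals from Toll-like, interleukin and tumour necrosis factor receptors have the inhibitor degraded, and the freed dimers enter the nucleus and switch on inflammatory genes such as Tnf and Cxcl2. Among the genes switched on are those of several inhibitors, which end the response and so form its feedback loop. Islet macrophages are able to make tumour necrosis factor, interleukins and chemokines. The 10 genes described here are 4 subunits (Nfkb1, Nfkb2, Rela, Relb), 3 IkB proteins (Nfkbia, Nfkbiz, Nfkbie), the ubiquitin regulators Tnfaip3 and Tnip1, and the survival gene Bcl2a1a. They were taken by symbol from the feature tables of both libraries, which listed 10 of the 10 among 31053 genes.

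The study profiled immune cells of pancreatic islets from C57BL/6J males on chow diet. Islets of 6 to 8 mice were pooled, and live cells negative for Epcam and positive for CD45 were sorted and sequenced with the 10x Genomics 3' v3 kit. One library carried the time label 12 weeks and the other 1 week, with no statement of the event from which these weeks run. Each label had 1 library, so the time label cannot be told apart from the library or the experiment it came from, and differences between the libraries are given with counting intervals and no test. The tag counts come from the 3' end of a transcript and are not scaled to its length, so levels of different genes are set side by side as transcripts counted.

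For 4 genes, the 250 bases before the RefSeq start site (GRCm38.p6, same strand as the gene) are shown, because these windows hold matches to the kappaB consensus, the DNA motif that NF-kB dimers bind. Capitals mark the matches on either strand, and overlapping matches run together.
Nfkbia, chr12:55492648-55492897, minus strand: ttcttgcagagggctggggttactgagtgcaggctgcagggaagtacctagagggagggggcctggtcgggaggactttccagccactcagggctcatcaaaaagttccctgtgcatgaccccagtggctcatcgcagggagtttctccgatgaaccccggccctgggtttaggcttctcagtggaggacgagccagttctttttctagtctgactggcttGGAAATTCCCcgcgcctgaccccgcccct
Tnfaip3, chr10:19015411-19015660, minus strand: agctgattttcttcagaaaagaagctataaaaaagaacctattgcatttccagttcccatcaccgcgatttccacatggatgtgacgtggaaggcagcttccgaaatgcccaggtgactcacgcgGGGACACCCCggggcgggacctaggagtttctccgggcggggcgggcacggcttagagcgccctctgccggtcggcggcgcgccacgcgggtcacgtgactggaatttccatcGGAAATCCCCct
Tnip1, chr11:54962941-54963190, minus strand: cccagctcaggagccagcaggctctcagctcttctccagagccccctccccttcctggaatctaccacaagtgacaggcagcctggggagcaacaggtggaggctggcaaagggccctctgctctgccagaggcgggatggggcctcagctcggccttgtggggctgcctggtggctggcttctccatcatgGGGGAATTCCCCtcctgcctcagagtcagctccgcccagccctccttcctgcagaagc
Cxcl2, chr5:90903649-90903898, plus strand: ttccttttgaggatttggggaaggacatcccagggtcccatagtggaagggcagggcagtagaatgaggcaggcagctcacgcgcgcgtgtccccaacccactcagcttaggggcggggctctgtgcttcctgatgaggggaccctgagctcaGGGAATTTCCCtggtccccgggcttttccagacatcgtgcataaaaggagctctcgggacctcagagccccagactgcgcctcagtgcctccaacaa
RefSeq windows matched 7 of the 10 genes, and 5 of the 7 (Nfkb2, Nfkbia, Nfkbie, Tnfaip3 and Tnip1) held at least 1 match in at least 1 window. Over RefSeq, 4.46% of 27025 genes held a match in at least 1 window, and 3.90% of 32851 windows did. The capitals begin 29 bases before the start in Nfkbia, 125 and 12 bases in Tnfaip3, 58 bases in Tnip1 and 97 bases in Cxcl2. The window of Tnf and that of Bcl2a1a held no match. A match is a description of letters in the window and not a bound site.

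In GRCm38 (GENCODE vM21), the subunit genes lie at chr3:135584655-135691547 (Nfkb1, ENSMUSG00000028163), chr19:46304320-46312385 (Nfkb2, ENSMUSG00000025225), chr19:5637483-5648130 (Rela, ENSMUSG00000024927) and chr7:19606217-19629438 (Relb, ENSMUSG00000002983). The IkB genes lie at chr12:55489410-55492647 (Nfkbia, ENSMUSG00000021025), chr16:55811375-55838899 (Nfkbiz, ENSMUSG00000035356) and chr17:45555703-45563169 (Nfkbie, ENSMUSG00000023947). Tnfaip3 (ENSMUSG00000019850) lies at chr10:19000910-19015657, Tnip1 (ENSMUSG00000020400) at chr11:54910785-54962917 and Bcl2a1a (ENSMUSG00000102037) at chr9:88956900-88962419. Values are counted over whole genes. Bcl2a1a has near-identical copies: over the last 300 bases of the longest coding transcript, where 3' tags fall, it shared 97.4% of aligned bases with Bcl2a1b and 99.3% with Bcl2a1d. Reads of the copies can be assigned to each other or dropped, so the split between them is uncertain.

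The libraries held 1867 barcodes with 12448628 UMIs (unique molecules) at 12 weeks and 1551 barcodes with 12858754 UMIs at 1 week. After filters on UMIs, genes and mitochondrial share, 1752 and 1340 cells remained, with a median of 6828.5 UMIs at 12 weeks and 7392 at 1 week, and 2 kept barcodes were shared. Macrophages, defined by 5 or more UMIs summed over the complement genes C1qa, C1qb and C1qc, were 1620 at 12 weeks (92.5%) and 1243 at 1 week (92.8%). A list of 10 macrophage markers, which includes C1qa, C1qb and C1qc, was detected in full in them. It stood at 13422 CPM (UMIs scaled to the same total in each class) at 12 weeks and 14778 at 1 week. B marker cells had 217 and 178, and dendritic marker cells 1377 and 1009. Since C1q counts chose the cells, part of this contrast was fixed by the definition. Cells with at most 1 C1q UMI were split by marker lists into B marker cells (29 at 12 weeks, 27 at 1 week), T marker cells (32 and 9) and dendritic marker cells (23 and 11). Endocrine hormone genes together stood at 5758 CPM at 12 weeks and 19685 CPM at 1 week in macrophages, at 799 and 262561 CPM in dendritic marker cells, and at 1033 and 111898 CPM in B marker cells. At 1 week, 1 dendritic and 1 B marker droplet had over 5% of its UMIs in these genes, and the results they change are also given without them. Apoe, a macrophage gene taken as a gauge of free RNA, stood at 29307 CPM in macrophages at 12 weeks and 25602 at 1 week, against 1337 and 295 in B marker cells, 449 and 177 in T marker cells, and 452 and 82.9 in dendritic marker cells.

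Islet macrophages carried all 10 genes in both libraries, led by Nfkbia, which encodes the classical inhibitor IkB alpha. Nfkbia stood at 537 CPM in macrophages at 12 weeks (95% Poisson interval 524 to 551) and at 679 at 1 week (664 to 694). Intervals cover counting error only. Nfkb1, the precursor of a subunit of the classical dimer, stood at 343 at 12 weeks and 356 at 1 week, intervals that overlap. Rela, its transactivating partner, was sparser, at 83.8 at 12 weeks and 87.5 at 1 week. The subunits of the alternative pathway were also sparse: Relb stood at 112 at 12 weeks and 99.2 at 1 week, and Nfkb2 at 86.3 and 65.7. Nfkb2 was higher in the 12 weeks library beyond counting error. For Relb the summed levels differed beyond counting error, but in cells thinned to equal depth the ratio of 12 weeks over 1 week was 1.01.

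Among the regulators, Bcl2a1a stood at 229 CPM in macrophages at 12 weeks and 370 at 1 week. Tnfaip3, a ubiquitin-editing enzyme that shuts off signalling to NF-kB, stood at 182 at 12 weeks and 193 at 1 week. Nfkbiz, a nuclear IkB protein that helps induce secondary response genes, stood at 137 at 12 weeks and 216 at 1 week. Nfkbiz and Bcl2a1a were thus lower in the 12 weeks library, while the intervals of Tnfaip3 overlapped. Tnip1, a binding partner of the TNFAIP3 protein, stood at 99.99 at 12 weeks and 148 at 1 week. Nfkbie, the inhibitor IkB epsilon, was low in both libraries, at 73.4 at 12 weeks and 91.4 at 1 week. For comparison, Tnf stood at 309 and 482, and Cxcl2 at 4475 and 4055.

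To compare single cells at equal depth, each macrophage was thinned at random to 3000 UMIs, which left 1530 cells at 12 weeks and 1089 at 1 week, with 90 and 154 shallower cells left out. Nfkbia had at least 1 UMI in 67.1% of macrophages at 12 weeks (exact binomial 95% interval 64.6 to 69.4) and 75.1% at 1 week (72.4 to 77.7). Nfkb1 was seen in 56.1% at 12 weeks and 56.2% at 1 week. Bcl2a1a was seen in 39.3% and 51.8%, and Tnfaip3 in 36.1% and 38.7%. Nfkbiz was seen in 25.8% at 12 weeks and 39.8% at 1 week, with intervals that do not overlap. The other 5 genes were each seen in 16.3% to 31.9% of macrophages. Over the 10 genes, the median share was 27.1% at 12 weeks and 35.3% at 1 week. Before thinning, Nfkb1 had a UMI in 74.6% of macrophages at 1 week, so a share of cells with a UMI is set by depth as well as by level.

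The genes differed in how unevenly they were spread over single macrophages. For counts that vary only by chance sampling, the variance over cells equals the mean. Relb came close to this, with a variance-to-mean ratio of 1.07 at 12 weeks and 1.03 at 1 week in thinned cells, and Rela had 1.11 and 1.10. Nfkbia had 2.15 and 2.01, Bcl2a1a 1.83 and 2.12, and Nfkbiz 1.78 and 1.60. Nfkb1 had 1.49 and 1.40 and Tnfaip3 1.47 and 1.48. The inhibitor gene Nfkbie, at 1.13 and 1.16, lay near the subunit genes Rela and Nfkb2, the latter at 1.11 and 1.14. Single macrophages held up to 16 Nfkbia UMIs in both libraries, 9 and 8 of Nfkbiz, and 11 and 13 of Bcl2a1a. Tnf and Cxcl2 were more uneven than any of the 10, with ratios of 2.97 and 3.41 for Tnf and 29.5 and 27.0 for Cxcl2.

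**Figure D1:**
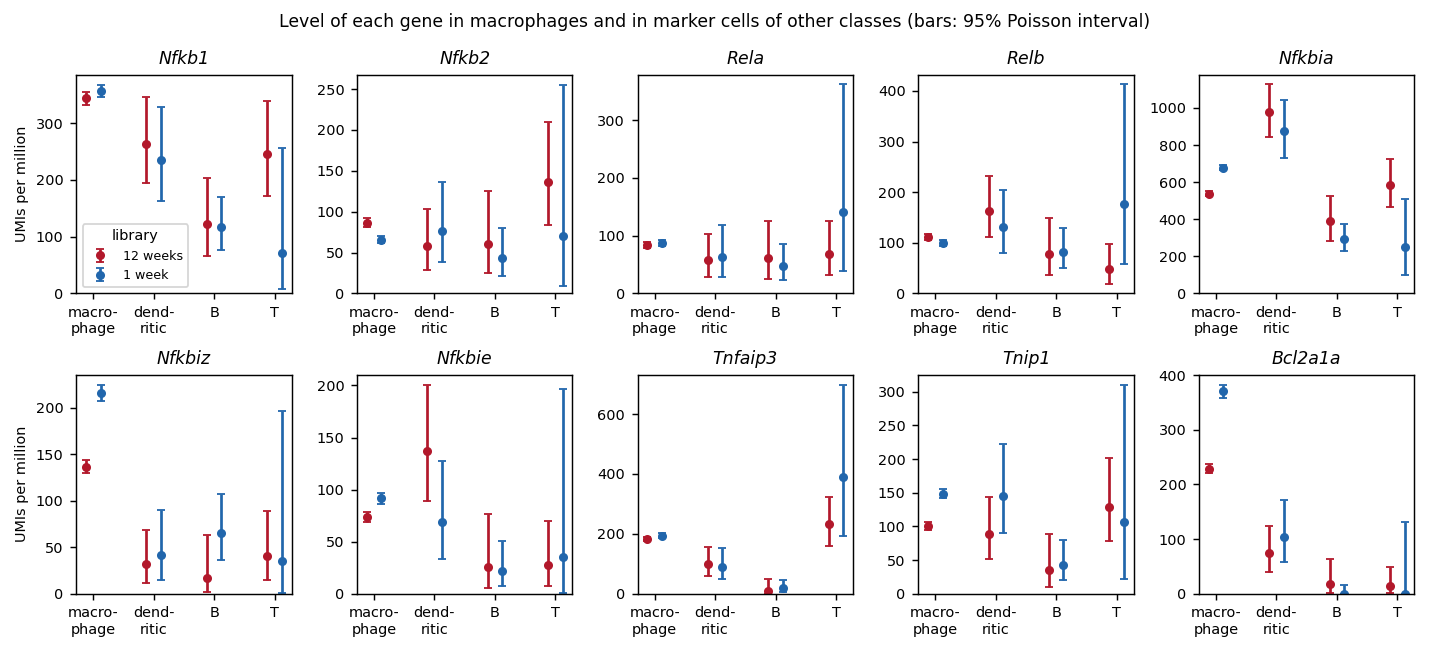
CPM of each gene (vertical axis, linear from 0) in macrophages and in dendritic, B and T marker cells, with the 12 weeks library in red and the 1 week library in blue; bars are 95% Poisson intervals. Nfkbiz and Bcl2a1a stand highest in macrophages in both libraries, while Nfkbia stands highest in dendritic marker cells, at 978 and 878.

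The comparison of macrophages with other immune cells of the same sort asks which of these genes are higher in macrophages. UMIs were summed per class and library and compared with edgeR's quasi-likelihood test with the library as a block, over 2876 genes with 2 residual degrees of freedom, and p-values were adjusted by Benjamini-Hochberg. With the library as a block, the p-values measure how far class differences vary between 2 libraries that carry different time labels. Counting error of the small classes is part of this spread. T marker cells at 1 week were below the minimum of 10 cells and stayed out of the fit, so the reference is the mean of B and dendritic marker cells. Of the 10 genes, 5 were higher in macrophages and 0 lower, against 20.4% of all genes tested higher and 6.71% lower (at an unadjusted p under 0.05, 749 genes were higher and 388 lower). Among the 5, Nfkbiz entered the test only through its macrophage sums, so its call is given as a description. The median log2 fold change was 0.81 over the 10 genes and 0.03 over all genes.

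Bcl2a1a showed the largest change among the 10. Bcl2a1a stood at 229 and 370 CPM in macrophages at 12 weeks and 1 week, against 73.6 and 104 in dendritic marker cells and 2 UMIs and 0 UMIs in B marker cells. The edgeR estimate was 3.70 on the log2 scale (SE 0.45, adjusted p = 0.00137), and it was higher in macrophages than in either class in both libraries. In T marker cells Bcl2a1a had 2 UMIs at 12 weeks and 0 at 1 week. The copies were detected there: Bcl2a1b stood at 374 and Bcl2a1d at 320 CPM in T marker cells at 12 weeks, against 1158 and 568 in macrophages. In dendritic marker cells at 12 weeks and 1 week, Bcl2a1b stood at 883 and 511, against 1158 and 1716 in macrophages. Bcl2a1d stood at 652 and 359, against 568 and 628, so at 12 weeks it was not higher in macrophages. In B marker cells Bcl2a1b had 43.4 and 108, and Bcl2a1d 95.5 and 56.3. Whether the change of Bcl2a1a holds over the copies together was not tested.

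Tnfaip3 was higher in macrophages by 2.34 on the log2 scale (SE 0.30, adjusted p = 0.00154, edgeR). It stood at 182 and 193 CPM in macrophages at 12 weeks and 1 week, against 99.9 and 89.8 in dendritic marker cells, and had 1 UMI and 4 UMIs in B marker cells. T marker cells, which were not part of the test, stood at 231 at 12 weeks and 389 at 1 week. The ratio of macrophages over T marker cells was 0.788 (95% counting interval 0.562 to 1.14) at 12 weeks and 0.497 (0.277 to 0.996, on 11 UMIs in T marker cells) at 1 week, where macrophages were lower beyond counting error. Tnfaip3 was seen in 9 of 18 thinned T marker cells at 12 weeks and 4 of 4 at 1 week, and in 0 of 18 and 0 of 25 B marker cells. Before thinning, 3.45% of B marker cells at 12 weeks and 14.8% at 1 week had a Tnfaip3 UMI.

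Nfkbiz was higher in macrophages by 2.12 on the log2 scale (SE 0.32, adjusted p = 0.00323, edgeR). Its levels of 137 and 216 CPM in macrophages at 12 weeks and 1 week compared with 31.5 and 41.5 in dendritic marker cells, 17.4 and 65.0 in B marker cells, and 40.8 and 35.4 in T marker cells. Macrophages were highest in both libraries, and the intervals of the other classes overlapped one another. Nfkbiz passed the count filter in 1 of the 4 profiles of other classes, and the other 9 genes in 2 to 4 of them. Nfkbiz thus entered the test only through its macrophage sums, where it is high, so its call is a description and no support.

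Nfkb1 was higher in macrophages by 1.02 on the log2 scale (SE 0.22, adjusted p = 0.0113, edgeR), and Tnip1 by 0.88 (SE 0.27, edgeR adjusted p = 0.0485). Nfkb1 stood at 343 and 356 CPM in macrophages at 12 weeks and 1 week, against 263 and 235 in dendritic marker cells and 122 and 117 in B marker cells. The ratio over dendritic marker cells was 1.31 (95% counting interval 0.989 to 1.76) at 12 weeks and 1.52 (1.08 to 2.19) at 1 week. With endocrine hormone genes left out of the totals, the levels at 1 week were 364 in macrophages and 319 in dendritic marker cells. Tnip1 stood at 99.99 and 148 CPM in macrophages at 12 weeks and 1 week, against 89.4 and 145 in dendritic marker cells. B marker cells had 34.7 and 43.3 CPM of Tnip1, and T marker cells, outside the test, 129 and 106. With endocrine hormone genes left out, Tnip1 at 1 week stood at 151 in macrophages, below 197 in dendritic marker cells. Neither Nfkb1 nor Tnip1 was called against dendritic marker cells alone. The call for Tnip1 was lost without droplets over 5% endocrine UMIs (adjusted p = 0.0979) and with DESeq2 (0.128). A stricter cell filter left no B marker cells in the fit, and 3 of the 10 genes were then higher, without Nfkb1 (adjusted p = 0.315) and Tnip1 (0.660).

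The other 5 genes did not pass the test. Their log2 fold changes were 0.74 for Nfkbie (SE 0.33, edgeR adjusted p = 0.138), 0.61 for Rela (SE 0.28), 0.39 for Nfkb2 (SE 0.33), 0.12 for Nfkbia (SE 0.21) and -0.05 for Relb (SE 0.25). For Nfkbia the separate classes lay on opposite sides. It stood at 537 and 679 CPM in macrophages at 12 weeks and 1 week, against 978 and 878 in dendritic marker cells and 391 and 295 in B marker cells. Macrophages were lower than dendritic marker cells and higher than B marker cells beyond counting error. The edgeR estimate for Nfkbia was -0.57 against dendritic marker cells (SE 0.25, adjusted p = 0.167) and 0.81 against B marker cells (SE 0.26, adjusted p = 0.0506), both on the log2 scale, so neither passed. Relb showed the same order, at 112 and 99.2 in macrophages, against 163 and 131 in dendritic marker cells and 78.1 and 82.3 in B marker cells, with intervals that overlapped those of macrophages. Without the droplets over 5% endocrine UMIs, the median over the 10 genes was 0.61.

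Against B marker cells alone, 6 of the 10 genes were higher in macrophages and 0 lower, against 18.8% of all genes higher and 9.53% lower. They were the 5 above and Nfkbie, higher by 1.75 on the log2 scale (SE 0.47, adjusted p = 0.0294, edgeR). Of the 6, only Nfkb1 was over the count filter's cutoff of 47.5 CPM in B marker cells of both libraries. The others entered the test through sums of macrophages or dendritic marker cells. A lower call was hardly open for genes this low in B marker cells, so 6 and 0 are a description. Against dendritic marker cells alone, 2 were higher and 0 lower, against 10.7% of all genes higher and 5.22% lower. These were Nfkbiz, with 2.29 (SE 0.43, edgeR adjusted p = 0.0130), and Bcl2a1a, with 1.78 (SE 0.43, edgeR adjusted p = 0.0289, and 0.0844 with DESeq2). Both calls carry a limit: Nfkbiz entered the test only through its macrophage sums, and the split of reads between the Bcl2a1 copies is uncertain. Apoe was 21.9-fold higher in macrophages than in B marker cells at 12 weeks and 86.9-fold at 1 week, and Nfkb1 was 2.82-fold and 3.05-fold higher. The part of free RNA in these counts was not tested.

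Other genes of the pathway, from lists chosen with earlier results known, stood beside the 10 as follows. Of 16 target genes of NF-kB, 15 were tested and 12 were higher in macrophages, with a median log2 fold change of 4.07, and 0 were lower. Those with the highest fitted change were Il1a, Cxcl1, Ptgs2, Ccl4, Ccl3 and Cxcl2, which encode cytokines, chemokines and the enzyme of prostaglandin synthesis. Ccl4 stood at 1732 and 2028 CPM in macrophages at 12 weeks and 1 week, against 94.6 and 0 in dendritic marker cells and 0 and 8.67 in B marker cells. By edgeR, Cxcl2 was higher by 6.01 on the log2 scale (SE 0.77, adjusted p = 0.00148) and Tnf by 4.07 (SE 0.44, adjusted p = 0.00096). Fitted changes of genes with few or no UMIs in the other classes depend on the prior count and are no bounds. Ccl4 and Tnf would not have passed the count filter without their macrophage sums. For such genes a lower call was hardly open, so 12 higher and 0 lower is a description and no support. How many of the 15 this holds for was not counted, and it may hold for genes of the lists that follow.

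Of 12 other feedback genes tested, 7 were higher and 1 was lower, with a median of 0.99. The lower one was Cyld, a deubiquitinase, at -1.02 on the log2 scale (SE 0.31, adjusted p = 0.0471, edgeR). Cyld stood at 30.6 and 28.3 CPM in macrophages at 12 weeks and 1 week, under the count filter's cutoff of 47.5 CPM. It entered the test only through the other classes, so a higher call was hardly open. Its lower call is a description and no support. Of 9 receptors, adaptors and kinases tested, 3 were higher and 0 lower, with a median of 0.28, and of 4 other subunits and IkB proteins, 1 was higher and 0 lower. Of the induced genes, 7 of 10 immediate early genes and 6 of 9 heat shock genes tested were higher and 0 lower, with medians of 1.34 and 2.84. Against dendritic marker cells, 3 pathway genes were lower in macrophages. Map3k14, the kinase of the alternative pathway, stood at 27.4 and 26.3 CPM in macrophages, against 210 and 69.1 in dendritic marker cells (log2 fold change -2.26, SE 0.42, edgeR adjusted p = 0.0128). Traf1, an adaptor of the receptor family, had -1.55 (SE 0.25, edgeR adjusted p = 0.00825), and Rel, the c-Rel subunit, had -0.99 (SE 0.25, edgeR adjusted p = 0.0335), with 359 and 346 in macrophages against 831 and 629.

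Between the libraries, macrophage sums were compared as the ratio of CPM at 12 weeks over 1 week. Of the 10 genes, 0 were at least 1.5-fold higher and 2 at least 1.5-fold lower, against 7.39% and 12.3% of 10216 genes with at least 20 UMIs in 1 library. The lower ones were Bcl2a1a, with a ratio of 0.618 (95% counting interval 0.589 to 0.649), and Nfkbiz, with 0.633 (0.593 to 0.674), which under TMM scaling had 0.667 and fell just short. Tnip1 lay just short of that limit, at 0.674 (0.624 to 0.727). The median ratio was 0.874 for the 10 genes and 0.951 for all genes.

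The other 7 genes lay within 1.5-fold. Nfkb2 had the highest ratio, 1.31 (1.19 to 1.45), and Relb followed with 1.13 (1.04 to 1.22). Nfkb1, Rela and Tnfaip3 had intervals that included 1, with ratios of 0.963, 0.958 and 0.944. Under TMM scaling, which multiplies the ratios by a constant, Nfkb1 and Rela stood above 1, at 1.02 and 1.01. Nfkbia and Nfkbie stood at 0.791 and 0.803, both with intervals below 1. Tnf was lower at 12 weeks, with 0.641 (0.614 to 0.669), and Cxcl2 was not, with 1.10 (1.09 to 1.12). Under TMM scaling Tnf had 0.676 and no longer passed 1.5-fold, and over all genes 939 were higher and 1020 lower, against 755 and 1253 as first scaled.

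**Figure D2:**
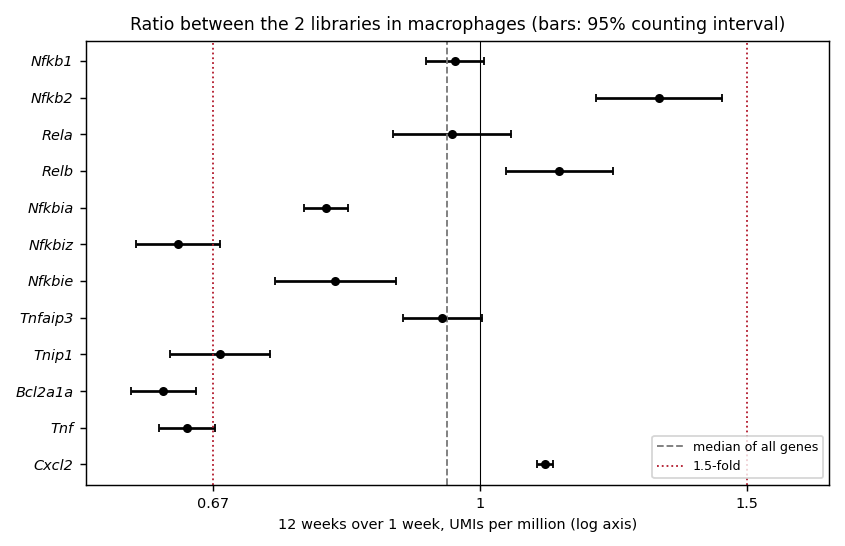
Ratio of CPM in macrophages at 12 weeks over 1 week for each gene (horizontal log axis), with 95% counting intervals; the dashed line is the median of all genes, 0.951, and dotted lines mark 1.5-fold. Bcl2a1a, Nfkbiz and Tnf lie beyond the lower line, and Tnip1 at 0.674 just inside it.

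Of the other pathway genes, the targets Il1a (104 CPM at 12 weeks, 199 at 1 week, ratio 0.522) and Il10 (ratio 0.594) were at least 1.5-fold lower, with Tnf the 3 of 16 that were (2 of 16 under TMM scaling). The adaptor Myd88 had a ratio of 0.638 (0.673 under TMM scaling, within 1.5-fold) and the receptor Il1r1 of 0.295 on 21 and 71 UMIs, and Nkrf, a repressor of NF-kB targets, had 0.579 on 18 and 31 UMIs. None of 14 other feedback genes passed 1.5-fold, and under TMM scaling 1 did, Irak3 with 1.57, a kinase-like inhibitor of Toll-like receptor signalling. Heat shock genes moved the other way: 8 of 9 were at least 1.5-fold higher at 12 weeks (9 of 9 under TMM scaling), with a median ratio of 2.02 and the highest at 4.95 for Hspb1. Of 11 immediate early genes, Nr4a1 (1.68) and Egr1 (1.55) were higher. Heat shock and immediate early genes are also induced when tissue is dissociated, and whether that bears on the ratios of the 10 genes was not tested.

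Over single macrophages thinned to 3000 UMIs, Nfkbiz and Tnfaip3 had higher correlations with Tnf and Cxcl2 than Rela, Relb and Nfkb2 did, also when all 10 genes were thinned to the same mean. Nfkbia did so as well before this matching, but not in every comparison after it. Spearman's rho was taken over 1530 cells at 12 weeks and 1089 at 1 week, and ranked among 4103 genes seen in at least 5% of cells in both libraries. All genes of a cell share its library and its depth, cells are not replicates, and rho is low for sparse counts, so values are given as a description with no p. The middle 90% of all genes lay between -0.06 and 0.07 with Tnf at 12 weeks, and between -0.09 and 0.11 at 1 week.

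With Tnf, Nfkbia had a rho of 0.22 at 12 weeks and 0.35 at 1 week, ranked 5th and 4th of all genes. Nfkbiz had 0.20 (7th) and 0.30 (13th), and Tnfaip3 0.18 (20th) and 0.30 (14th). Bcl2a1a had 0.14 (39th) and 0.25 (31st), and Nfkb1 0.11 (82nd) and 0.17 (83rd). These 5 genes were above the 95th percentile of all genes in both libraries. Ranks and percentiles, here and with Cxcl2, were taken without matching genes for abundance. Rela had 0.04 (528th) and 0.07 (448th), and Relb 0.04 (521st) and 0.10 (240th), inside the range of most genes. Nfkb2, Nfkbie and Tnip1 were above the 95th percentile in 1 library each: Nfkb2 with 0.03 at 12 weeks and 0.13 at 1 week, Nfkbie with 0.04 and 0.12, and Tnip1 with 0.09 and 0.08.

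With Cxcl2, Tnfaip3 led at 12 weeks with a rho of 0.25 (42nd) and had 0.31 (27th) at 1 week. Nfkbiz had 0.21 (66th) and 0.25 (54th), Nfkb1 0.19 (80th) and 0.17 (129th), and Nfkbia 0.16 (124th) and 0.35 (20th). The middle 90% of all genes lay between -0.11 and 0.12 at 12 weeks and between -0.11 and 0.13 at 1 week, below all of these values. Relb had 0.13 (164th) at 12 weeks, also above that range, and 0.10 (305th) at 1 week. Rela had 0.07 (401st) and 0.07 (467th), and Nfkb2 0.07 (430th) and 0.12 (226th). Bcl2a1a had 0.06 (478th) at 12 weeks and 0.21 (84th) at 1 week, and Tnip1 0.01 and 0.05. Nfkbie had -0.02 (2210th) at 12 weeks and 0.08 (463rd) at 1 week. The median over the 10 genes was 0.10 at 12 weeks and 0.15 at 1 week both with Tnf and with Cxcl2, against -0.0028 and -0.0041 over all genes with Tnf and -0.02 and -0.01 with Cxcl2. Tnf and Cxcl2 had a rho of 0.29 and 0.50 with each other.

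**Figure D3:**
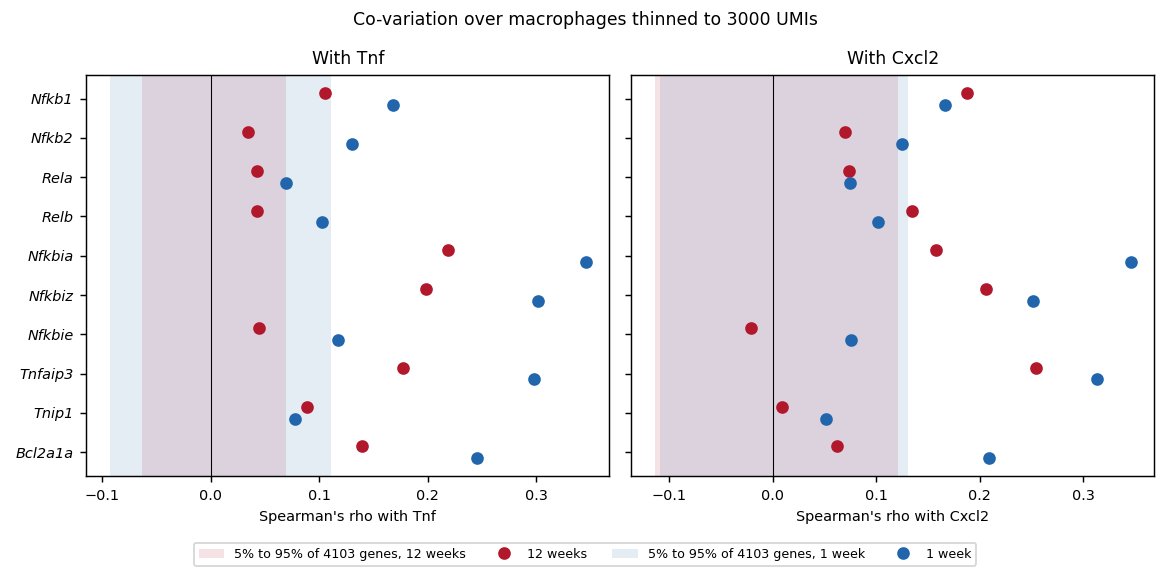
Spearman's rho of each gene with Tnf (left) and Cxcl2 (right) over macrophages thinned to 3000 UMIs, with the 12 weeks library in red and the 1 week library in blue; shaded bands hold the middle 90% of 4103 genes. Nfkbia, Nfkbiz and Tnfaip3 lie to the right of the bands in all 4 comparisons.

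The size of these relations can be read from mean counts in cells binned by Tnf. At 12 weeks, 167 thinned macrophages had 3 or more Tnf UMIs and 854 had none, and at 1 week 240 and 452. Nfkbiz averaged 0.820 UMIs per cell in the 167 cells and 0.279 in the 854 cells at 12 weeks, and 1.28 and 0.365 at 1 week, a ratio of 2.94 and 3.49. Tnfaip3 averaged 1.05 and 0.406 at 12 weeks and 1.04 and 0.334 at 1 week, a ratio of 2.59 and 3.12. Both were higher in the cells with more Tnf beyond counting error. Nfkbia averaged 2.78 and 1.30 at 12 weeks and 3.23 and 1.44 at 1 week, a ratio of 2.14 and 2.24. The ratio was 1.97 and 2.18 for Bcl2a1a, and 1.52 and 1.65 for Nfkb1.

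Rela averaged 0.246 UMIs per cell in cells with 3 or more Tnf UMIs at 12 weeks and 0.238 in cells with none, a ratio of 1.03, and the ratio at 1 week was 1.27. In cells with 1 to 2 Tnf UMIs it averaged 0.332 at 12 weeks, above the cells with none beyond counting error. Relb had 1.16 and 1.69, Nfkbie 1.18 and 1.67, Nfkb2 1.35 and 2.20, and Tnip1 1.82 and 1.28. Apoe, the gauge of free RNA and of macrophage RNA, had 0.968 and 1.05. Cells with 3 or more Cxcl2 UMIs, 920 at 12 weeks and 714 at 1 week, averaged 2.63 and 2.23 times the Nfkbiz of cells with none (402 and 240), and 2.33 and 3.17 times the Tnfaip3. Relb averaged 1.73 and 1.80 times as much, Rela 1.42 and 1.19 times, and Nfkbie 0.904 and 1.33 times. Apoe averaged 1.10 and 1.24 times as much over the same Cxcl2 bins, and its part in the smaller ratios was not tested.

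**Figure D4:**
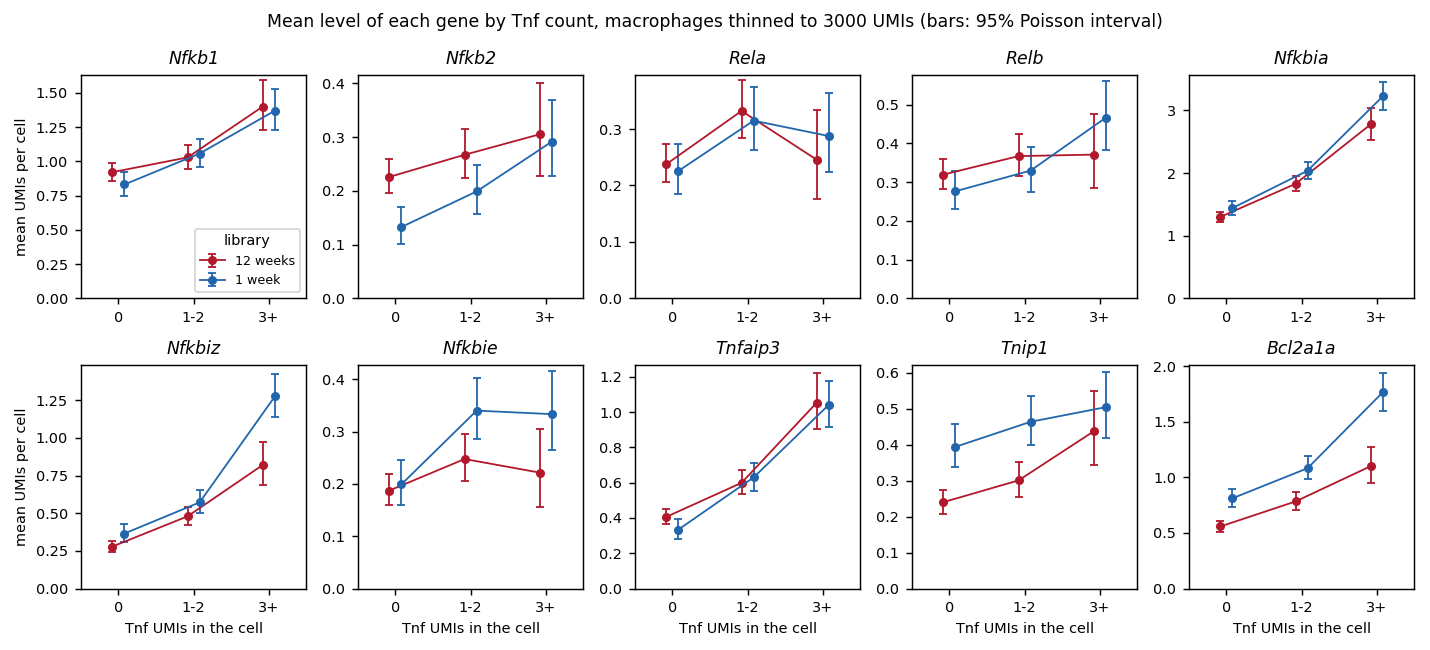
Mean UMIs per cell of each gene (vertical axis, linear from 0) in thinned macrophages with 0, 1 to 2 and 3 or more Tnf UMIs, with the 12 weeks library in red and the 1 week library in blue; bars are 95% Poisson intervals. Nfkbia, Nfkbiz, Tnfaip3 and Bcl2a1a climb over the bins in both libraries, while Rela does not differ between the outer bins beyond its intervals.

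Since rho falls with sparse counts, each gene was also thinned to the mean of the sparsest of the 10, in 50 draws, an alternative chosen after seeing the data. At this matched level the rho with Tnf was 0.16 at 12 weeks and 0.20 at 1 week for Nfkbiz, 0.13 and 0.19 for Tnfaip3, and 0.11 and 0.13 for Nfkbia. Bcl2a1a had 0.10 and 0.13, Nfkb1 0.05 and 0.08, and Rela 0.04 and 0.06. Nfkbia thus fell to the level of Bcl2a1a, and at 1 week to that of Nfkb2 (0.13), while Nfkbiz and Tnfaip3 led in both libraries. With Cxcl2 at the matched level, Tnfaip3 had 0.17 and 0.19 and Nfkbiz 0.16 and 0.15. Nfkbia had 0.07 at 12 weeks, below Relb and Nfkb1 with 0.10 each, and 0.13 at 1 week, near Nfkb2 with 0.12.

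Immediate early and heat shock genes did not rise with the 10 genes as a group. The summed UMIs of the 10 genes, with a median of 5 per thinned macrophage at 12 weeks and 6 at 1 week, had a rho of 0.30 and 0.45 with Tnf and 0.30 and 0.43 with Cxcl2. The same sum had -0.06 and -0.08 with the immediate early sum and -0.07 and -0.19 with the heat shock sum. Tnip1 had -0.13 and -0.26 with the immediate early sum, and Bcl2a1a -0.15 and -0.20 with the heat shock sum. Nfkbiz, with 0.17 and 0.10, and Tnfaip3, with 0.09 and 0.07, were positive with the immediate early sum. Cxcl2 itself had 0.45 at 12 weeks and 0.19 at 1 week with the heat shock sum and 0.31 and 0.24 with the immediate early sum, and Tnf had 0.11 and 0.04 with the heat shock sum and 0.09 and 0.17 with the immediate early sum. The sum of the 10 genes had 0.04 and 0.06 with the UMIs of a cell before thinning, and 0.03 and 0.17 with the mitochondrial share. With the C1q genes that define the macrophages, the sum had -0.07 and -0.19, Tnfaip3 -0.14 and -0.19, and Cxcl2 -0.34 and -0.23.

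**Figure D5:**
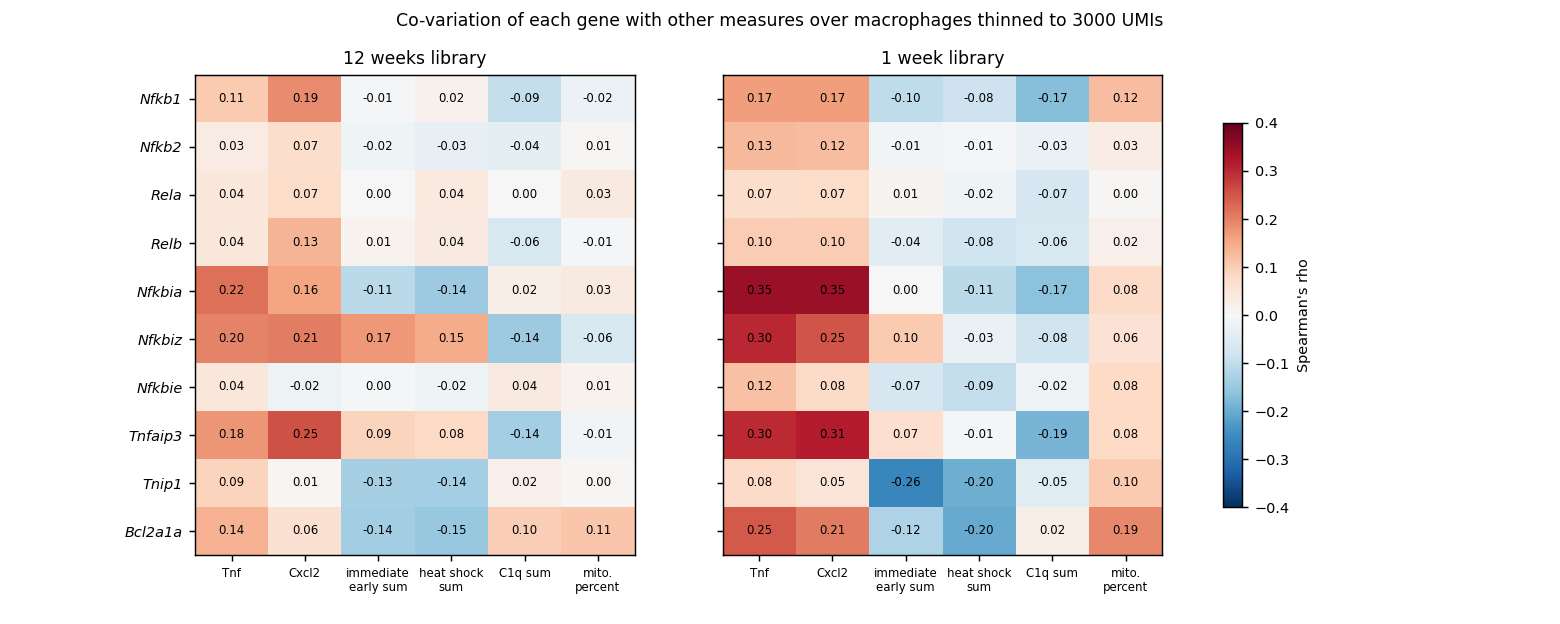
Spearman's rho of each gene (rows) with Tnf, Cxcl2, the summed immediate early, heat shock and C1q genes and the mitochondrial share (columns) over macrophages thinned to 3000 UMIs, with the 12 weeks library on the left and the 1 week library on the right and rho written in each cell. Nfkbia, Nfkbiz and Tnfaip3 are red with Tnf and Cxcl2, and Tnip1 and Bcl2a1a are blue with the immediate early and heat shock sums.

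Pairs among the 10 genes co-varied weakly, with a median rho of 0.05 at 12 weeks and 0.09 at 1 week over 45 pairs. The highest pair was Nfkbia with Tnfaip3 at 1 week, 0.26, and the highest at 12 weeks had 0.16. Over 1530 and 1089 cells, the genes outside the 10 whose counts were most like their sum in both libraries were Tnfaip2, Bcl2a1d, Slfn2, Bcl2a1b, Sdc4, Gadd45b, Tnf, Cxcl2, Sod2 and Cd83. Tnfaip2 led with a rho of 0.41 at 12 weeks and 0.47 at 1 week, and Cd83 closed the 10 with 0.29 and 0.46. Bcl2a1b and Bcl2a1d are the near-identical copies of Bcl2a1a, whose split of reads is uncertain.

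In B, T and dendritic marker cells, co-variation with Tnf was not described, because few of these cells at equal depth had a Tnf UMI. At 3000 UMIs, Tnf had a UMI in 1 of 23 dendritic marker cells, 0 of 18 B marker cells and 0 of 18 T marker cells at 12 weeks, and in 1 of 11, 2 of 25 and 1 of 4 at 1 week. Nfkbia was still seen in 19 of 23 and 10 of 11 dendritic marker cells at 12 weeks and 1 week, and in 11 of 18 and 16 of 25 B marker cells. Nfkbiz was seen in 1 of 23 and 0 of 11 dendritic marker cells. Apoe, as the gauge of free RNA, was seen in 17 of 23 and 3 of 11 dendritic marker cells and in 14 of 18 and 10 of 25 B marker cells. At 12 weeks, Nfkbiz and Tnf were seen in a smaller share of dendritic marker cells than Apoe was. In macrophages of that library Apoe stood at 29307 CPM, against 137 for Nfkbiz and 309 for Tnf. With levels this unlike, the order of the shares cannot gauge free RNA, which was not tested. Medians before thinning were 7785 and 8914 UMIs for dendritic marker cells, 3127 and 5408 for B marker cells, and 3395 and 2975 for T marker cells.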

How the data were processed

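The deposited files hold raw UMI counts per gene and cell barcode in 2 libraries. Per the file headers, the authors made these counts with Cell Ranger 3.1.0, and per the submitters' processing notes with the mm10 build; further settings are not given in the sources used here. Depth was 12448628 UMIs at 12 weeks and 12858754 at 1 week. Barcodes with at least 1000 UMIs, 500 genes and at most 10% mitochondrial UMIs were kept. Macrophages had at least 5 C1q UMIs, and other immune classes at most 1, with at least 3 UMIs of their marker list and more of it than of the other lists. No doublet caller was run: 65 macrophages at 12 weeks and 122 at 1 week had at least 3 UMIs of a B, T or dendritic list, and an alternative leaves them out. Cells are not replicates, so counts were summed per class and library and tested with edgeR 4.0.16 (TMM, library as block, adjusted p under 0.05). Genes that chose the cells were left out of the calls. On simulated counts the fit was checked to recover known changes. Per-cell values used cells thinned to 3000 UMIs (numpy 2.4.6, fixed seed), and Spearman's rho (scipy 1.17.1). Promoter windows are the 250 bases before the start in RefSeq GRCm38.p6. The members and all gene lists were chosen with earlier results of these data known. Named outside the 10 genes are Tnf, Cxcl2, listed genes past a threshold (at most 6 in each direction, by fold), and the 10 genes most like the summed members. Neutrophil marker cells were looked at after their values were seen. Alternatives covered normalization (DESeq2 1.42.0 among them), filters, depth, mixed droplets, C1q limits and endocrine RNA.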

Additional observations from a re-analysis of the deposited data

Results flagged for a closer look

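For 6 pairs of a gene and a class, macrophages stood above the class in one library and below it in the other. The difference between the libraries was not tested, and the ratios of CPM, macrophages over the class, follow with 95% counting intervals. Against dendritic marker cells, Nfkb2 had 1.49 (0.830 to 2.998) at 12 weeks and 0.865 (0.481 to 1.74) at 1 week. Nfkbie had 0.537 (0.364 to 0.827) and 1.32 (0.717 to 2.77) against the same class. With endocrine hormone genes left out of the totals, Nfkbie at 1 week stood at 93.3 CPM in macrophages and 93.7 in dendritic marker cells. On these totals, macrophages no longer stood above dendritic marker cells for Nfkbie at 1 week. Against T marker cells, Nfkbia had 0.918 (0.742 to 1.15) at 12 weeks and 2.74 (1.33 to 6.82) at 1 week on 86 and 7 UMIs in T marker cells. Rela had 1.23 (0.667 to 2.58) and 0.618 (0.241 to 2.27) against T marker cells, and Tnip1 had 0.773 (0.493 to 1.29) and 1.40 (0.478 to 6.79). Relb had 2.35 (1.14 to 5.85) and 0.561 (0.240 to 1.73) against T marker cells. The intervals of the 2 libraries overlapped for Nfkb2, Nfkbie, Rela, Relb and Tnip1, and did not for Nfkbia against T marker cells, of which 1 week had 9.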

How the results depend on the processing

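No call changed direction under the alternatives run. Some values that passed no threshold did; for example, the 12 weeks over 1 week ratios of Nfkb1 and Rela stood at 1.02 and 1.01 under TMM scaling, and that of Nfkb1 at 1.01 as a mean over cells. Counts of members higher in macrophages moved by over 1.5 times with the stricter cell filter (3 against 5, where only dendritic marker cells remained as reference) and, against dendritic marker cells, with DESeq2 (1 against 2). The median log2 fold change of the members, 0.81 in the reported fit, was 1.20 without a filter on low counts, 0.62 with the stricter cell filter and 0.61 without cells over 5% endocrine UMIs, and without a filter it was 2.02 against B and 0.73 against dendritic marker cells. Leaving out each library gave 0.70 to 0.85 for that median, 1.33 to 1.66 against B and 0.18 to 0.62 against dendritic marker cells, values with no test. Over all genes, those higher in macrophages were 1330 without the filter (1060 against B, 718 against dendritic marker cells), 1295 with all low C1q cells as 1 class, where 984 were lower, and 593 against dendritic marker cells with the stricter filter. Without cells over 5% endocrine UMIs, 319 were lower, and 429 against B marker cells. The causes were not tested. The reported fit holds the library as a block; with no replicate block, 4 members were higher (Tnip1 lost, adjusted p = 0.109), 7 against B and 3 against dendritic marker cells, and genes higher were 589. No paired analysis was possible between the time labels because they share no replicate number. In the ratio of 12 weeks over 1 week, TMM scaling left 1 member past 1.5-fold lower (Bcl2a1a 0.652, Nfkbiz 0.667). Thinned to 1500 UMIs, the median share of macrophages with a UMI was 15.1% at 12 weeks and 20.5% at 1 week, since fewer UMIs were drawn. Under the alternatives for co-variation, the median rho of the 10 genes with Tnf ran over 0.07 to 0.14 at 12 weeks and 0.11 to 0.20 at 1 week, and with Cxcl2 over 0.07 to 0.11 and 0.09 to 0.18. B, T and dendritic marker cells held 28274 to 230755 UMIs per library, so genes with few UMIs there have wide intervals.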

Other observations

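At 12 weeks, 10 cells with low C1q carried at least 3 UMIs of a neutrophil marker list, and they were looked at after their values were seen. Nfkbia stood at 6755 CPM in them (115 UMIs, 95% Poisson interval 5577 to 8108), against 537 in macrophages of the same library. Nfkbiz stood at 1057 (18 UMIs, 627 to 1671) and Tnfaip3 at 705 (12 UMIs, 364 to 1231), against 137 and 182 in macrophages. Cxcl2 stood at 4581 (3621 to 5718), where macrophages had 4475, and Tnf at 411 (7 UMIs, 165 to 847), where macrophages had 309. These cells were too few for a correlation. The subunit gene Nfkb1 had 2 UMIs in these cells. At 1 week, 1 cell with low C1q met the same limit.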
